A study of Mus musculus with 6 samples.

Results

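*Wiz* and 8 genes whose proteins work with the WIZ protein were followed in mouse primary neuronal cultures with and without knockdown of *Pla2g4e*. The 9 genes were taken by name from the 55357 genes of the deposited count tables, and all 9 were among the 21876 genes with enough reads to be tested. The group was chosen by the measured CPM of *Wiz*, which was already known to be low in the knockdown cultures, and by known partnership with it, so the fold changes of the 9 genes are given as a description and without p-values. The cultures came from the cortex and hippocampus of wild type C57BL/6N embryos taken at E18. At DIV4 (day in vitro 4), 3 samples received a lentivirus with a scrambled shRNA (shCtrl) and 3 received the same vector carrying the sh2 hairpin against *Pla2g4e* (shPla2g4e), and RNA was collected at DIV14. A single hairpin was sequenced, and the labels do not say whether the samples of a group were separate cultures, so p-values measure only the spread between these samples.

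The methyltransferases G9a, encoded by *Ehmt2*, and GLP, encoded by *Ehmt1*, form a complex that places methyl groups on lysine 9 of histone H3 (H3K9), a mark of silenced genes. The zinc finger proteins WIZ and ZNF644 (*Zfp644* in mouse) bind both enzymes and bring them to DNA. CDYL and the HP1 proteins, encoded by *Cbx1*, *Cbx3* and *Cbx5*, bind the methylated lysine through a chromodomain, and CTCF holds chromatin loops at sites where WIZ is also found. In neurons this system helps to keep non-neuronal and activity-dependent genes silent.

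The sequences of the hairpin and of the matches to its seed in the annotated 3′ UTRs of *Wiz*, *Ehmt1* and *Ctcf* are shown because a guide strand can pair, through its bases 2 to 8 (the seed), with transcripts other than its target. The capitals mark the seed in the guide and the complementary site GTGGCCA in the target and the transcripts, all written 5′ to 3′. The sites lie in the last exon of each transcript, and their coordinates are those of the 7 capitals in GRCm38, the build of the transcript annotation used for this search (GENCODE vM21).
sh2 target in *Pla2g4e*: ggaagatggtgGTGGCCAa
sh2 guide strand: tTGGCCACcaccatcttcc
*Wiz*, first site, chr17:32354678-32354684, minus strand: atctgccatccGTGGCCAtttgcaaagac
*Wiz*, second site, chr17:32354123-32354129, minus strand: taaccttttcaGTGGCCAccttttggtta
*Ehmt1*, chr2:24791934-24791940, minus strand: gaattgccagtGTGGCCAgtgggaccctc
*Ctcf*, chr8:105682525-105682531, plus strand: gttgattatgaGTGGCCAcagcaaccctg

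Between 17054717 and 23570180 reads were counted per library. Expression is given as CPM, the reads of a gene scaled to library size with edgeR's TMM factors. *Pla2g4e*, the targeted gene, was at 38.0, 35.1 and 35.4 CPM in shCtrl and at 21.8, 14.1 and 18.7 CPM in shPla2g4e cultures, a log2 fold change of −0.99 (SE, the standard error, 0.13; adjusted p = 0.000124 in edgeR's quasi-likelihood test), in the direction of the labels. Over all genes, 6.49% were called at an adjusted p of 0.01 (876 lower and 543, or 2.48% of all genes, higher in shPla2g4e cultures), and the groups did not overlap in CPM for 30.0%. The number of calls was 1419, and it moved to 928 without shCtrl replicate 1, 695 without shCtrl replicate 2, 854 without shPla2g4e replicate 1 and 931 without shPla2g4e replicate 2. Modelling the replicate number, by which libraries of both groups deviated together though the labels state no pairing, raised the share called to 15.5%. All 8 neuronal markers were expressed, as were those of astrocytes (summed level 1471 to 2146 CPM in shCtrl and 1068 to 1863 CPM in shPla2g4e libraries, with *Aqp4* called lower) and of the oligodendrocyte lineage (483 to 545 and 500 to 596 CPM). Of 7 microglial markers the 6 with enough reads to be tested summed to at most 9.50 CPM, and *P2ry12* and *Itgam* were under 1 CPM in every library. Of 6 endothelial and mural markers the 5 tested summed to 26.5 to 67.6 CPM in shCtrl and 27.8 to 72.3 CPM in shPla2g4e libraries, with none called, and *Cldn5* was under 1 CPM.

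*Wiz* (ENSMUSG00000024050, chromosome 17, 32573029 to 32608413, minus strand; gene coordinates are those of GRCm39) was the 1 gene of the 9 that was called, as lower in shPla2g4e cultures, which is the difference it was chosen for. Its level was 152, 128 and 132 CPM in shCtrl and 49.98, 43.3 and 47.02 CPM in shPla2g4e cultures. Every knockdown library lay far under every control library, and between 823 and 3140 reads stood behind each value. On average it went from 137.6 ± 12.9 to 46.8 ± 3.34 CPM (mean ± SD of 3 libraries), so that 34.0% of the control level was left, and the log2 fold change was −1.56 (SE 0.091, 95% interval −1.75 to −1.36). Of the 10908 genes whose mean log2 CPM reached 3, only 5 had a lower log2 fold change. Over the same libraries the 8 neuronal markers summed to 4567 to 4987 CPM in shCtrl and 4007 to 4474 CPM in shPla2g4e cultures, and 3 of them were called lower (*Tubb3*, *Map2* and *Rbfox3*) and 1 higher (*Nefl*). The part of this shift in the level of *Wiz* was not tested, and in bulk RNA a smaller number of cells that express a gene cannot be told apart from less of its RNA per cell.

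The second zinc finger gene, *Zfp644* (ENSMUSG00000049606, chromosome 5, 106764605 to 106845153, minus strand), encodes the protein that pairs with WIZ in the complex. It had 61.5, 63.3 and 61.4 CPM in shCtrl and 53.8, 62.7 and 52.5 CPM in shPla2g4e cultures. The groups overlapped, since shPla2g4e replicate 2 stood at the control level. The log2 fold change was −0.14 (SE 0.087, 95% interval −0.33 to 0.05). Per kilobase of exon, *Wiz* made up 77.0 ± 1.80% of the summed *Wiz* and *Zfp644* level in shCtrl libraries and 55.7 ± 4.01% in shPla2g4e libraries (SD, n = 3 each). By these merged exon lengths, 9242 bases in *Wiz* and 14001 in *Zfp644*, the shares of *Zfp644* in the 3 knockdown libraries were 41.5, 48.9 and 42.4%. The order of the 2 genes depends on the length used. In CPM *Zfp644* was above *Wiz* (49.98, 43.3 and 47.02) in each knockdown library. The longest coding transcripts have 5058 bases for *Wiz* and 5785 for *Zfp644*.

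The genes of the 2 methyltransferases were not called. *Ehmt1* (ENSMUSG00000036893, chromosome 2, 24679940 to 24809626, minus strand) had 62.1, 61.8 and 65.0 CPM in shCtrl and 56.0, 54.1 and 55.6 CPM in shPla2g4e cultures. All its knockdown values were under all its control values, by a small margin, with a log2 fold change of −0.19 (SE 0.078, 95% interval −0.35 to −0.02). *Ehmt2* (ENSMUSG00000013787, chromosome 17, 35117445 to 35133028, plus strand) had 246, 218 and 249 CPM in shCtrl and 224, 208 and 231 CPM in shPla2g4e cultures. Its groups overlapped, with a log2 fold change of −0.11 (SE 0.082, 95% interval −0.28 to 0.07). The balance between the 2 enzymes was similar in both groups, *Ehmt1* giving 15.2 ± 0.763% of their summed level per kilobase in shCtrl and 14.5 ± 0.475% in shPla2g4e libraries. *Cdyl* (ENSMUSG00000059288, chromosome 13, 35843816 to 36058046, plus strand), whose protein links the methylated lysine to the enzymes, was the least abundant member. It had 16.1, 14.4 and 13.5 CPM in shCtrl and 17.0, 12.4 and 17.8 CPM in shPla2g4e cultures, and the spread within the knockdown group was wider than the difference between the means. The log2 fold change of 0.10 (SE 0.14) had a 95% interval from −0.21 to 0.41, the widest of the group.

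**Figure D1:**
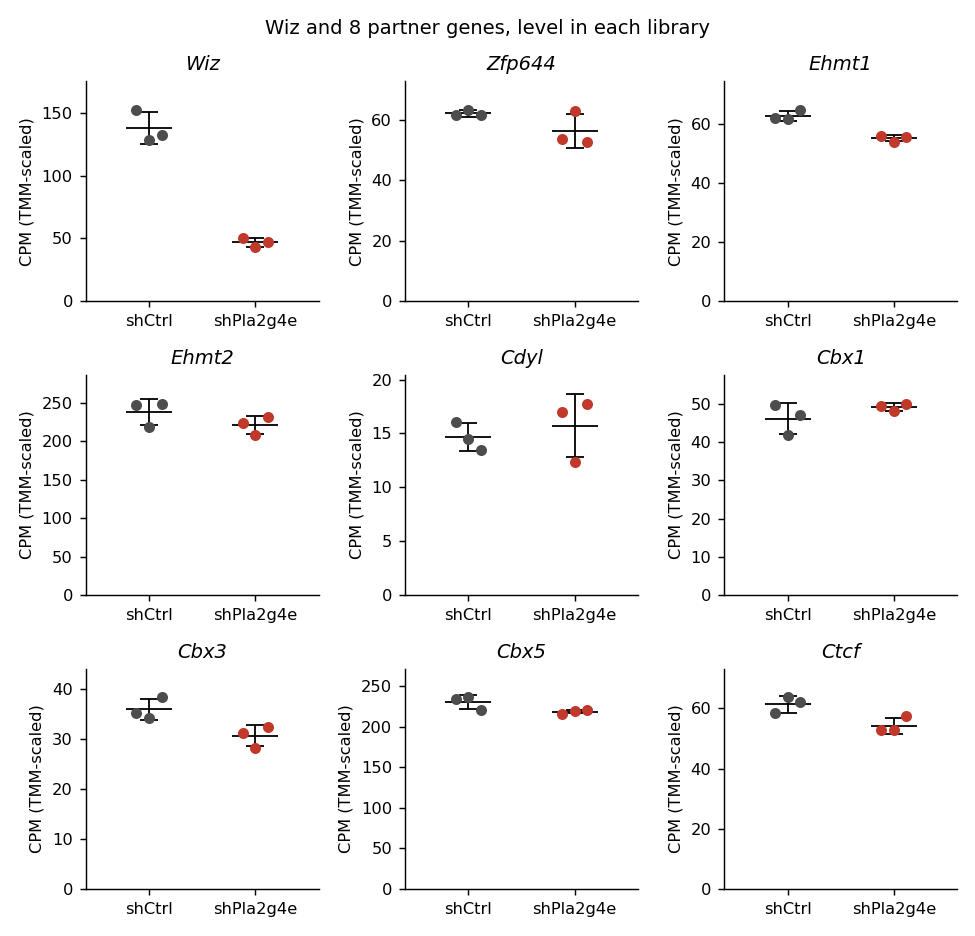
CPM of the 9 genes in each library (y axis, from 0, with its own scale per gene) for 3 shCtrl and 3 shPla2g4e libraries; points are libraries and bars the mean ± SD. For *Wiz* the groups stand apart at 43.3 to 49.98 and 128 to 152 CPM, while the values of the partners lie close together or overlap.

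None of the 3 HP1 genes was called, and the signs of their fold changes differed. *Cbx5*, which encodes HP1α (ENSMUSG00000009575, chromosome 15, 103099971 to 103148243, minus strand), had 234, 236 and 220.4 CPM in shCtrl and 216, 219 and 220.5 CPM in shPla2g4e cultures, and its log2 fold change was −0.08 (SE 0.074, 95% interval −0.23 to 0.08). *Cbx1*, for HP1β (ENSMUSG00000018666, chromosome 11, 96679953 to 96699466, plus strand), had 49.6, 41.8 and 47.1 CPM in shCtrl and 49.4, 48.1 and 50.1 CPM in shPla2g4e cultures (log2 fold change 0.09, SE 0.088, 95% interval −0.10 to 0.28). Both genes had overlapping groups. *Cbx3*, for HP1γ (ENSMUSG00000029836, chromosome 6, 51447340 to 51460684, plus strand), had 35.3, 34.2 and 38.4 CPM in shCtrl and 31.2, 28.3 and 32.4 CPM in shPla2g4e cultures. Its groups did not overlap, and its log2 fold change of −0.23 (SE 0.095, 95% interval −0.44 to −0.03) was the lowest among the partners of *Wiz*. Of the 50-base stretches of its transcript, 3.997% also occur elsewhere, in the pseudogene *Cbx3-ps7*, and for *Cdyl* 4.197% occur in *Gm7584*, so a small part of the reads of these genes may have been left uncounted. In shares of the summed HP1 level per kilobase, *Cbx5* gave 60.3 ± 2.26% in shCtrl and 59.3 ± 0.873% in shPla2g4e libraries, *Cbx1* 25.5 ± 1.75 and 28.2 ± 0.230%, and *Cbx3* 14.2 ± 0.963 and 12.5 ± 0.679% (SD, n = 3 each). The groups did not overlap in the share of *Cbx1* (23.5 to 26.7% in shCtrl, 27.9 to 28.4% in shPla2g4e libraries). Nor did they in that of *Cbx3* (13.5 to 15.3% and 11.7 to 12.99%), while for *Cbx5* they overlapped.

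*Ctcf* (ENSMUSG00000005698, chromosome 8, 106363200 to 106409554, plus strand) had 58.3, 63.7 and 62.0 CPM in shCtrl and 52.7, 52.9 and 57.4 CPM in shPla2g4e cultures. The groups came within 1 CPM of each other without overlapping, with a log2 fold change of −0.18 (SE 0.082, 95% interval −0.35 to −0.003). Its value is less certain than the others, because 7.61% of its exon bases lie under exons on the other strand (*Agrp* and *Gm5914*) and no strand option appears in the record of the counting.

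Of the 9 genes 1 was called, *Wiz*, beside 6.49% of all genes, and the 8 partners were not, also by limma after voom, by DESeq2 and with the replicate number in the model. Among the partners 6 were lower and 2 higher, with log2 fold changes between −0.23 and 0.10 and a median of −0.12, beside 0.03 over all genes tested. The groups did not overlap for 3 of the 8 (*Ehmt1*, *Cbx3* and *Ctcf*), beside 30.0% of all genes. Of the partners, 85.2% (*Cbx3*) to 107% (*Cdyl*) of the control level was present in the knockdown cultures. The interval of every partner lay above the interval of *Wiz*, the lowest partner bound being −0.44 for *Cbx3*. As *Wiz* was chosen for its fall, this is a description and not a test. Scaling libraries by size alone moved the median of all genes from 0.03 to 0.10. No member changed direction, but *Cbx5* went from −0.08 to −0.0009, *Ehmt2* from −0.11 to −0.03 and *Cdyl* from 0.10 to 0.17.

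**Figure D2:**
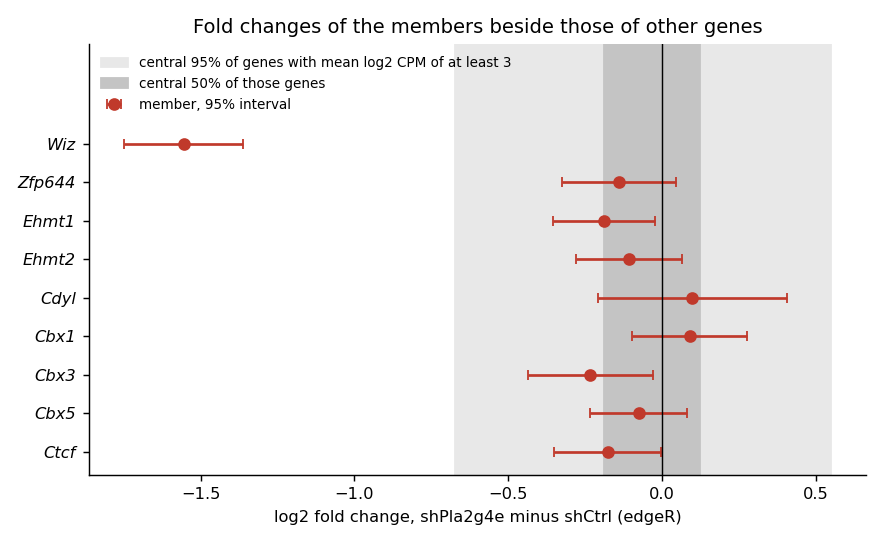
Log2 fold change, shPla2g4e minus shCtrl, of each of the 9 genes (points) with its 95% interval (bars) from edgeR. Bands show the central 50% (−0.19 to 0.13) and 95% (−0.67 to 0.55) of the 10908 genes whose mean log2 CPM reached 3; *Wiz* lies at −1.56, outside both bands, and the 8 partners lie between −0.23 and 0.10.

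Ratios of 2 genes in the same library do not depend on how libraries are scaled. Per kilobase, *Wiz* was 2.15, 1.82 and 1.79 times as high as *Ehmt1* in the shCtrl libraries, and 0.784, 0.703 and 0.742 times as high in the shPla2g4e libraries. To *Ehmt2*, the most abundant member, the ratio was 0.367, 0.348 and 0.316 in shCtrl and 0.133, 0.124 and 0.121 in shPla2g4e libraries. Per kilobase of merged exon *Wiz* thus passed from above *Ehmt1* to below it, and it was under *Ehmt2* in all 6 libraries. The place below *Ehmt1* depends on the lengths used, 9242 bases for *Wiz* and 8116 for *Ehmt1*. The longest coding transcripts have 5058 bases for *Wiz* and 5953 for *Ehmt1*, and the order by these lengths was not taken. For none of the 8 partners did the ratios of both groups overlap. This follows from the fall for which *Wiz* was chosen, so it is no separate result on the partners. No share of other gene pairs was taken to set beside it. In the knockdown cultures the mean ratio was between 31.9% (to *Cbx1*) and 39.8% (to *Cbx3*) of that in the controls, with 38.7% for *Ehmt1*, 36.6% for *Ehmt2*, 37.8% for *Zfp644* and 38.3% for *Ctcf*. Of the ratios between partners, 3 were taken, all to *Ehmt2*. That of *Ehmt1* to *Ehmt2* was 0.179 ± 0.0107 in shCtrl and 0.169 ± 0.00649 in shPla2g4e libraries, that of *Zfp644* to *Ehmt2* was 97.8% of the control ratio and that of *Cdyl* to *Ehmt2* 114.5%, and in all 3 the groups overlapped.

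**Figure D3:**
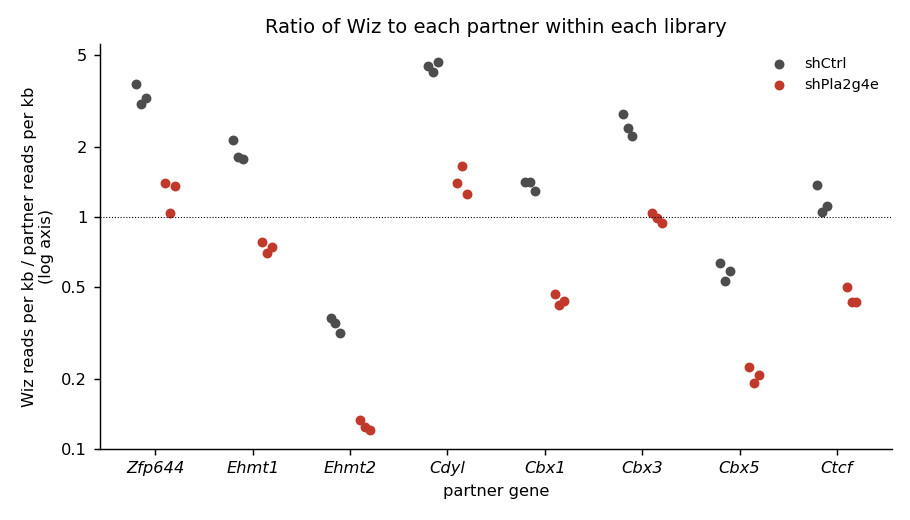
Reads per kilobase of *Wiz* divided by those of each partner within each library (log axis), for 3 shCtrl (grey) and 3 shPla2g4e (red) libraries. The groups are apart for all 8 partners, which follows from the fall for which *Wiz* was chosen. Per kilobase of merged exon, the ratio to *Ehmt1* is 1.79 to 2.15 in the controls and 0.703 to 0.784 in the knockdown cultures.

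In shCtrl cultures the levels per kilobase of annotated exon (CPM per kb, mean ± SD, n = 3) ran from *Ehmt2* at 43.3 ± 3.07 through *Cbx5* at 25.6 ± 0.951, *Wiz* at 14.9 ± 1.40, *Ctcf* at 12.6 ± 0.564, *Cbx1* at 10.8 ± 0.932, *Ehmt1* at 7.75 ± 0.217, *Cbx3* at 6.002 ± 0.358 and *Zfp644* at 4.43 ± 0.0744 to *Cdyl* at 3.34 ± 0.295. No neighbours in this order overlapped between libraries. Exons of all isoforms were merged to give the length, which runs from 4273 bases in *Cbx1* to 14001 in *Zfp644*, so a gene whose long exons are little used is set too low. In shPla2g4e cultures *Wiz* stood at 5.06 ± 0.361 CPM per kb, and its place went from 3 to 7 of 9. There its range of 4.69 to 5.41 overlapped that of *Cbx3* (4.72 to 5.41), just above it in the order.

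Partners were also compared with *Wiz* by likeness of pattern, measured as the mean absolute difference over the 6 libraries between 2 profiles of log2 CPM, each centred on its own shCtrl mean. The 5 most similar of 10907 genes were *1700020I14Rik*, a long non-coding RNA (difference 0.0788), *Jph3*, which encodes a junctophilin that ties the endoplasmic reticulum to the cell membrane (0.0970), *Rras2*, for a Ras-related GTPase (0.0989), *Grn*, for progranulin (0.127), and *Gpr12*, for an orphan receptor (0.141). *Jph3* was close to *Wiz* in level as well, with 161, 131 and 121 CPM in shCtrl and 51.1, 47.99 and 52.1 CPM in shPla2g4e cultures. *1700020I14Rik* had a mean of 566.4 ± 44.9 CPM in shCtrl and 182.7 ± 10.2 CPM in shPla2g4e cultures. The log2 fold changes of the 5 lay between −1.63 and −1.36. In their annotated 3′ UTRs *Rras2* holds the sh2 seed site 3 times, *Grn* 2 times and *Jph3* and *Gpr12* once each, and the part of these sites in the likeness was not tested. The partners were far down this order, from *Cbx3* at rank 2265 (difference 0.719) to *Cbx1* at rank 6536 (0.852). With profiles centred on the shCtrl mean, the order largely restates the fold changes and is no separate comparison of the partners with *Wiz*.

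*Akap8* and *Akap8l*, which encode a pair of nuclear anchoring proteins, lie next to *Wiz* on chromosome 17. Their log2 fold changes were −0.06 (SE 0.092) and 0.10 (SE 0.096), and neither was called by edgeR.

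In the annotated 3′ UTRs the seed site of the sh2 guide, shown above, occurs 2 times in *Wiz*, once in *Ehmt1* and once in *Ctcf*. Of the 15703 tested genes with an annotated 3′ UTR, 14.6% hold at least 1 site and 2.04% hold 2 or more. The sites of *Wiz* depend on the isoform: both lie in the 3′ UTR of Wiz-203, 1 of them also lies in that of Wiz-207, and the longest coding transcript, Wiz-213, is annotated without a 3′ UTR and holds 1 site in its coding sequence. Wiz-207 holds 2 coding sites, and the longest coding transcripts of *Ehmt1* and *Ctcf* hold 1 coding site each. *Zfp644*, *Cdyl* and *Cbx3* hold no site in the coding transcripts searched, *Ehmt2* holds it in its coding sequence only, and *Cbx1* and *Cbx5* hold it in their 5′ UTRs only. The longest run of the sh2 target found anywhere in the transcripts was 11 bases in *Ehmt1*, 9 in *Wiz* and 7 to 9 in the other members. In *Pla2g4e* it was all 19. Such a run need not include the seed site.

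Over all genes the log2 fold change was lower where more of these sites were present. Its median was 0.02 for the 13414 genes with 0 sites, −0.12 for the 1969 genes with 1 site and −0.26 for the 320 genes with 2 or more, and the share called as lower was 3.56, 14.9 and 26.6%. *Wiz* was far from the middle of its class, with 5 of the 320 genes below it. *Ehmt1* and *Ctcf*, at −0.19 and −0.18, were between the quartiles of genes with 1 site (−0.35 and 0.08). Whether seed pairing has a part in the level of *Wiz* was not tested, and with 1 hairpin it cannot be told apart from the loss of *Pla2g4e*.

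**Figure D4:**
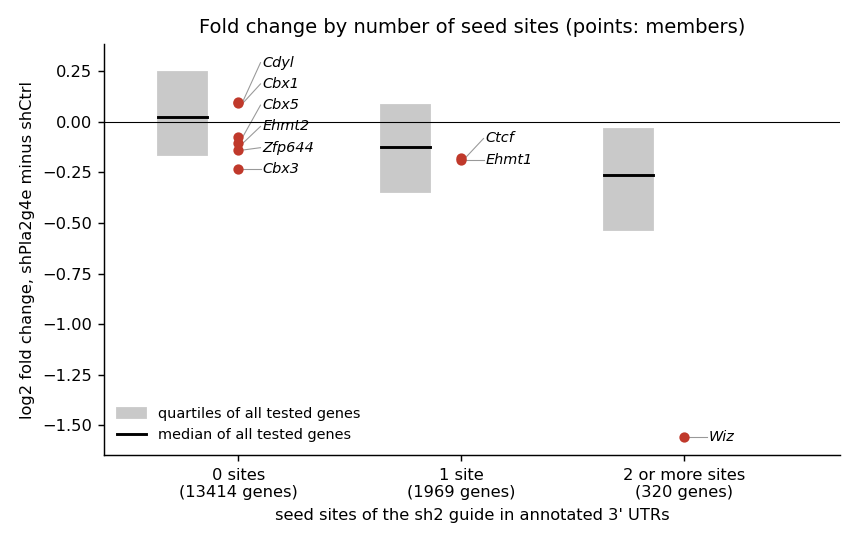
Log2 fold change (y axis) by the number of sh2 seed sites in annotated 3′ UTRs (x axis). Grey boxes span the quartiles and black bars give the median of all tested genes in the class (0.02, −0.12 and −0.26), and red points are the 9 genes; *Wiz*, with 2 sites, lies at −1.56, below the box of its class.

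Other enzymes that write or erase H3K9 methylation, with *Atf7ip* and *Atf7ip2*, cofactors of the methyltransferase SETDB1, formed a list of 20 genes, of which all but *Atf7ip2* were tested. In shPla2g4e cultures 2 were called lower and 1 higher (15.8%, beside 6.49% of all genes), 16 were lower and 3 higher, and the median log2 fold change was −0.10. *Kdm7a*, a histone demethylase that acts on H3K9 and H3K27, rose from 57.5, 47.5 and 59.4 CPM to 95.5, 90.5 and 90.4 CPM, with a log2 fold change of 0.75 ± 0.091 (SE) and an edgeR adjusted p of 5.46e-05, and every knockdown library lay above every control library. *Phf2* and *Kdm3b*, both for H3K9 demethylases, fell by smaller amounts. *Phf2* went from 79.1 ± 2.75 to 61.9 ± 0.877 CPM, with a log2 fold change of −0.35 ± 0.077 (SE) and an edgeR adjusted p of 0.00610, and *Kdm3b* from 94.9 ± 3.60 to 74.3 ± 2.83 CPM, with a log2 fold change of −0.35 ± 0.078 (SE) and an edgeR adjusted p of 0.00629. These 2 calls were lost when libraries were scaled by size alone (adjusted p = 0.0201 for *Phf2* and 0.0225 for *Kdm3b* in edgeR). They were also lost without shCtrl replicate 1 (0.0263 and 0.0155), shCtrl replicate 2 (0.0340 and 0.0529), shPla2g4e replicate 1 (0.0262 and 0.0368) or shPla2g4e replicate 2 (0.0213 and 0.0258), and that of *Phf2* without shPla2g4e replicate 3 (0.0124), all in edgeR. With the replicate number in the model 4 of the list were called, 3 lower and 1 higher, beside 15.5% of all genes, the added gene being the demethylase gene *Kdm4b* (edgeR adjusted p = 8.20e-05, named after its values were seen). None of the methyltransferase genes of this list (*Suv39h1*, *Suv39h2*, *Setdb1*, *Setdb2*, *Prdm2*, *Mecom* and *Prdm16*) was called by edgeR, limma or DESeq2, and 1 of them, *Suv39h1*, had an unadjusted p under 0.05 in edgeR, with 14.6% of its exon bases under a gene on the other strand.

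Further factors that bind G9a, GLP or their DNA-bound partners formed a list of 23 genes, 21 of them tested. Only *Uhrf1* was called, as lower (4.76%, beside 6.49% of all genes), while 14 genes were lower, 7 were higher and the median was −0.16. *Uhrf1*, which brings DNA methyltransferase 1 to replicated DNA, had 5.09, 6.34 and 7.77 CPM in shCtrl and 2.43, 2.63 and 2.80 CPM in shPla2g4e cultures (log2 fold change −1.29, SE 0.22, adjusted p = 0.000824 in edgeR). Its counts are less certain, since 18.9% of its 50-base stretches are found in transcripts of other genes too. The 6 markers of dividing cells, in which *Uhrf1* is mainly expressed, summed to 28.6 to 49.5 CPM in shCtrl and 16.3 to 27.5 CPM in shPla2g4e libraries, with *Top2a* called lower and none of them at 0, and their part in the level of *Uhrf1* was not tested. With the replicate number in the model 5 genes were called, *Uhrf1*, *Cdyl2* and *Dnmt3a* as lower and *Zfp462* and *Ring1* as higher, beside 15.5% of all genes (names given after their values were seen). The edgeR adjusted p in that model was between 0.00106 and 0.00592 for the 4 genes that joined *Uhrf1*, of which *Dnmt3a* holds the seed site 3 times in its annotated 3′ UTRs. The histone deacetylases *Hdac1* and *Hdac2* and the repressor *Rest* were not called in either fit, but the level of *Hdac1* is uncertain because 58.7% of its 50-base stretches are shared with *Gm10093* and *Gm4864*.

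Of 14 genes whose proteins bind HP1 or act with it on heterochromatin, all were tested and 1 was called (7.14%, beside 6.49% of all genes). This was *Pogz*, a zinc finger gene whose product binds HP1α and which is mutated in intellectual disability. It fell from 76.7, 79.4 and 79.1 CPM to 57.7, 50.7 and 58.9 CPM, with a log2 fold change of −0.49 ± 0.083 (SE) and an edgeR adjusted p of 0.000929. The groups did not overlap, and its 3′ UTR holds the seed site once. The list had 9 genes lower, 5 higher and a median of −0.14. With the replicate number in the model 4 were called lower (beside 15.5% of all genes in either direction), *Pogz*, *Daxx*, *Incenp* and *Chaf1a* (chosen for naming after their values were seen; edgeR adjusted p of 0.00126 to 0.00236 for the last 3), of which the mitotic gene *Incenp* and the replication gene *Chaf1a* belong to dividing cells, whose markers are given above. The value of *Chaf1a* is uncertain, since 52.5% of its exon bases lie under exons of *Ubxn6* on the other strand. *Trim28*, the corepressor that joins zinc finger proteins to HP1, had 179 CPM in shCtrl and 158 CPM in shPla2g4e cultures and was not called in either fit.

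For CTCF and cohesin, 18 genes of subunits, loaders, release factors and co-binding proteins were tested and 0 were called by edgeR, beside 6.49% of all genes. At an unadjusted p under 0.05 there were 2 (*Stag1* and *Zfp143*, named after their values were seen), beside 5625 of the 21876 genes tested, and the count of calls was also 0 with limma after voom, DESeq2 and the replicate number in the model (beside 15.5% of all genes). The median was −0.11, with 13 genes lower and 5 higher. The cohesin subunits *Smc1a*, *Smc3*, *Rad21*, *Stag1* and *Stag2* had log2 fold changes of −0.15, −0.08, 0.11, −0.24 and −0.12, and their standard errors were between 0.077 and 0.083. Of these *Stag1* had the value farthest from 0, with 57.6, 58.0 and 59.6 CPM in shCtrl and 47.3, 50.4 and 50.5 CPM in shPla2g4e cultures, and its groups did not overlap (edgeR adjusted p = 0.0581). *Zfp143*, for a zinc finger protein found with CTCF at loop anchors, had a log2 fold change of 0.34 (SE 0.13, edgeR adjusted p = 0.0870).

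Clustered protocadherins are adhesion proteins that give neurons individual surface identities, and choice among their promoters depends on CTCF. Of the 57 genes, 55 were tested, 12 were called lower and 0 higher (21.8%, beside 6.49% of all genes), and 47 were lower with a median of −0.43. By cluster, in the gamma cluster 11 of 21 genes were called and all 21 were lower (median −0.72), in the alpha cluster 1 of 12 was called (median −0.63), and in the beta cluster 0 of 22 were called by edgeR, with or without the replicate number, by limma or by DESeq2, and 1 had an unadjusted p under 0.05. Log2 fold changes in the beta cluster lay between −0.34 and 0.36 (median −0.08), and whether the clusters differ was not tested. *Pcdhga2* fell from 33.0, 29.7 and 26.3 CPM to 13.6, 14.01 and 14.1 CPM, with a log2 fold change of −1.09 ± 0.11 (SE) and an edgeR adjusted p of 1.25e-05. The most abundant of the called genes, *Pcdhgc4*, had 101, 91.2 and 74.7 CPM in shCtrl and 57.1, 59.2 and 43.9 CPM in shPla2g4e cultures (log2 fold change −0.73, SE 0.12, adjusted p = 0.000706). The groups did not overlap for either gene, nor for *Pcdhga3*, *Pcdhga7* and *Pcdhga12*, whose log2 fold changes were between −0.92 and −0.85.

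The genes of the alpha and gamma clusters share their last exons, and reads in exons of several genes were left out of the counts. The median share of exon bases that overlap another gene on the same strand was 53.6% in the alpha, 44.6% in the gamma and 0% in the beta cluster, so alpha and gamma counts come mainly from each gene's own first exon. An annotated 3′ UTR with the sh2 seed site was present in 20 of 21 gamma, 2 of 22 beta and 0 of 12 alpha genes, and in 11 of the 12 genes called. As the gamma genes share their last exons, these may be the same sites counted again, and not independent occurrences. The gamma genes with a site are also in the class of genes with 2 or more sites. The part of these sites, and that of the lower level of *Wiz*, in the protocadherin values was not tested. With the replicate number in the model 23 were called lower, 14 gamma and 9 alpha genes, beside 15.5% of all genes in either direction, and without that term the number was 7 without shCtrl replicate 1 and 7 without shCtrl replicate 2.

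**Figure D5:**
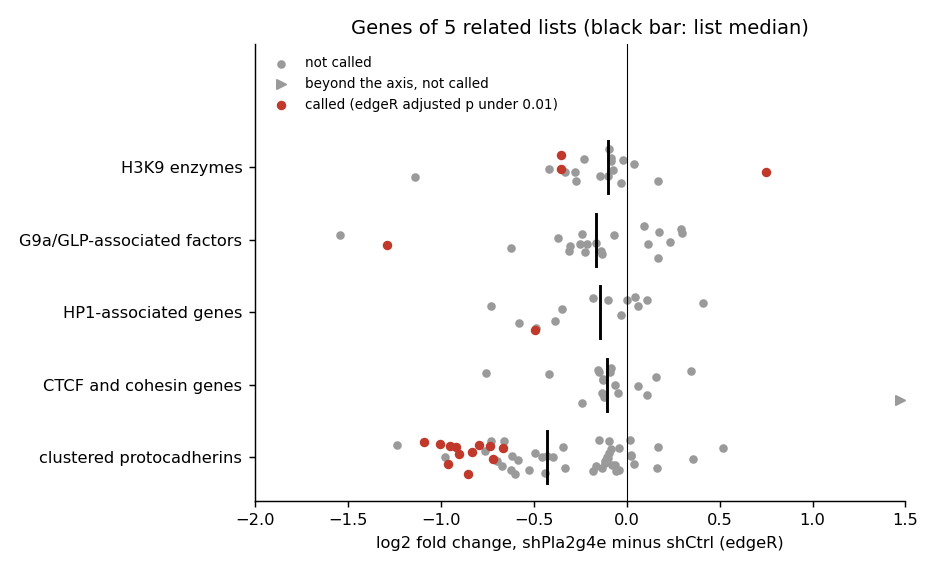
Log2 fold change, shPla2g4e minus shCtrl, of the tested genes of 5 lists (points, 19, 21, 14, 18 and 55 genes; vertical scatter is arbitrary), with genes called at an adjusted p under 0.01 in red and the list median as a black bar. Called genes number 3, 1, 1, 0 and 12; the arrow marks *Ctcfl*, which had no reads in the shCtrl libraries and lies beyond the axis.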

How the data were processed

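Poly(A) RNA of 6 libraries was sequenced with a stranded kit. The authors aligned reads with STAR 2.7.0d, counted those on gene exons with featureCounts 1.6.0 and deposited raw read counts per gene, which carry GENCODE vM28 and GRCm39 coordinates (the methods name mm10 and GENCODE M18). The record of the counting has no strand, pair or multi-mapping option, so reads on exons of several genes were left out. Symbols were taken from GENCODE vM21 for 52081 of the 55357 genes.

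Genes that reached 6 reads in any 1 library were compared, shPla2g4e against shCtrl, with edgeR 4.0.16 (R 4.3.3): TMM, quasi-likelihood test, Benjamini-Hochberg adjustment, threshold 0.01. The study's test, limma after voom (limma 3.58.1), and DESeq2 1.42.0 were alternatives, beside other size factors, filters, a threshold of 0.05, a replicate block and leaving out each library. The steps were tested on simulated data. Same-numbered libraries deviated together over 10908 genes (correlations 0.39, 0.19 and 0.46, against −0.39 to 0.11 between other numbers), so the numbers pair the samples. Depth was 17054717 to 23570180 reads, and between libraries of a group the counts differed by more than sampling noise.

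The members and lists were chosen with earlier results of these data known. Named were the members, *Pla2g4e*, up to 5 called genes per list with the smallest p, the 5 genes most like *Wiz* and markers near 0; other names say so or are given for their role. Identical 50-base stretches and sh2 seed sites were searched in GENCODE vM21 transcripts (GRCm38), and the hairpin was read from the study's oligonucleotide list. Some results are not reported here.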

Additional observations from a re-analysis of the deposited data

How the results depend on the processing

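The log2 fold changes of the 9 genes kept their direction in 13 alternatives each, between −1.61 and −1.48 for *Wiz* and between −0.27 and 0.24 for the partners, and *Wiz* alone was called among the 9 in all 14 alternatives of the count, the looser threshold included. The ratio of *Wiz* to its partners in shPla2g4e over shCtrl cultures lay between 0.298 and 0.425, and it moved by more than the spread in 3 of 56 cases, all without shCtrl replicate 1 (0.411 for *Ehmt1*, 0.425 for *Cbx3* and 0.416 for *Ctcf*). The count of CTCF and cohesin genes was 0 in all 14 alternatives. Counts over all genes and over the other lists moved more. Without a filter on low counts 2349 genes were called, with 2 of the G9a/GLP-associated factors and 2 of the HP1-associated genes. At a threshold of 0.05 the numbers were 2813 over all genes, 3, 3 and 22 for the G9a/GLP-associated, HP1-associated and protocadherin lists. With the replicate block they were 3395, 5, 4 and 23, with 4 for the H3K9 list, and the block changed no call among the 9 genes. With library size alone 1 of the H3K9 list was called in place of 3, and the split over all genes became 609 lower and 796 higher in place of 876 and 543. Leaving out a library gave 695 to 1613 calls over all genes, 1 to 4 for the H3K9 list (1 without either shCtrl replicate 1 or 2, or shPla2g4e replicate 1 or 2), 1 to 2 for the G9a/GLP-associated factors (2 without shPla2g4e replicate 3), 1 to 2 for the HP1-associated genes (2 without shPla2g4e replicate 2) and 7 to 13 for the protocadherins. The causes of these shifts were not tested, beyond the smaller number of libraries. With 3 libraries a group, the standard errors of the partners' log2 fold changes were 0.074 to 0.14, which limits the differences that can be seen.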
